A study of Sus scrofa with 30 samples.

Results

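The shift between 6 h and 1 day after total body irradiation (TBI) was followed in the plasma of 3 Göttingen minipigs (GMPs), a small pig breed used as a large-animal model of radiation injury. The members were the 3 libraries labelled 0d, drawn 6 h after TBI, and the 3 labelled 1d, drawn 1 day after TBI, 6 of the 30 libraries in the series. Each minipig gave 1 library at each time, so the libraries formed 3 pairs, and all Sus scrofa miRNAs (ssc-miRNAs) of the deposited table were compared. The same animals had also been bled 7 days (C7) and 1 day (C1) before TBI, which gave 6 pre-TBI libraries from unirradiated plasma.

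The GMPs were males of 3 to 5 months and received 2.2 Gy of cobalt gamma rays under isoflurane, Telazol and xylazine anesthesia. Blood was drawn under isoflurane. They formed the control arm of a countermeasure trial and were given dextrose under the skin on day 1. Whether the 1d draw came before or after that injection is not given in the sources used here. No sham-irradiated animals were sampled at 6 h and 1 day in these libraries, so elapsed time, anesthesia, injection and irradiation cannot be told apart in the shift.

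MicroRNAs are short RNAs that pair through their seed with messenger RNAs and lower the output of their targets. Cells cut them from hairpin precursors that leave 2 possible mature arms, named 5p and 3p. In plasma they travel inside vesicles or bound to proteins, and they come from blood cells, platelets, endothelium and solid organs such as liver and gut. After TBI, lymphocytes and marrow progenitors die within hours, the tumour suppressor p53 is activated in damaged cells, and the gut lining and endothelium are injured. In bulk plasma, more cells releasing an ssc-miRNA and more release per cell cannot be told apart. Levels are given as CPM, read counts relative to a library size scaled by TMM. They are relative to the other ssc-miRNAs of the library, so a change in the total amount of circulating miRNA would not be seen.

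The 0d libraries held 211132, 473459 and 524084 counts in minipigs 1, 2 and 3, and the 1d libraries held 262498, 356011 and 452489. All ssc-miRNAs tested had at least 1 count in each of these 6 libraries. The 5 most abundant ssc-miRNAs took 42.1%, 34.5% and 45.4% of the counts at 0d and 38.1%, 29.8% and 41.5% at 1d, lower in 3 of 3 minipigs, with a mean difference of −4.21 ± 0.42 percentage points (SD, n = 3). The two-sided exact permutation test gave p = 0.25, the smallest that 3 pairs allow. The most abundant, ssc-miR-4332, was at 212593, 153175 and 217682 CPM at 0d and at 174186, 107601 and 213645 CPM at 1d (log2 fold change −0.27, SE 0.19, adjusted p = 0.55). ssc-miR-9828-3p fell from 45647, 31289 and 46515 CPM to 33271, 19090 and 38737 CPM (−0.48, SE 0.17, adjusted p = 0.28), and ssc-miR-874 had −0.20 (adjusted p = 0.599). ssc-miR-484, also among those 5, was listed at 16.9%, 9.61% and 14.99% at 0d and at 13.6%, 6.53% and 14.4% at 1d (exact p = 0.25). The marker of myeloid cells named for the check of the plasma, ssc-miR-223, was not analysed here, while markers of red cells, lymphocytes, platelets, liver and striated muscle were detected.

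At 1d, 41 ssc-miRNAs rose and 25 fell against 0d at an unadjusted p under 0.05 in edgeR's quasi-likelihood test with the minipig as a block. These were 9.98% and 6.08% of all ssc-miRNAs tested, 16.1% together, and 345 did not pass. None had an adjusted p under 0.05 after Benjamini-Hochberg adjustment over all ssc-miRNAs tested, where the smallest adjusted p was 0.212. With the same block, DESeq2's Wald test gave 13 ssc-miRNAs past the adjusted threshold and edgeR's likelihood ratio test gave 10. "Rose" and "fell" therefore stand below for an unadjusted p under 0.05 in the quasi-likelihood test, and every such call is provisional. Over the whole table, 87 ssc-miRNAs were higher (21.2%) and 81 lower (19.7%) in 3 of 3 minipigs, and all 66 called were among them. In fits of 2 pairs, 11 of the 66 were called whichever minipig was left out, while 53 were not called without minipig 1, 42 without minipig 2 and 18 without minipig 3. The changes were modest, with log2 fold changes from −0.91 to 1.26, while the median over the whole table was −0.03. The balance of rises and falls depended on the scaling. With library size alone 55 rose and 7 fell, and with TMM factors over 12 libraries, the pre-TBI ones included, 25 rose and 37 fell.

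**Figure D1:**
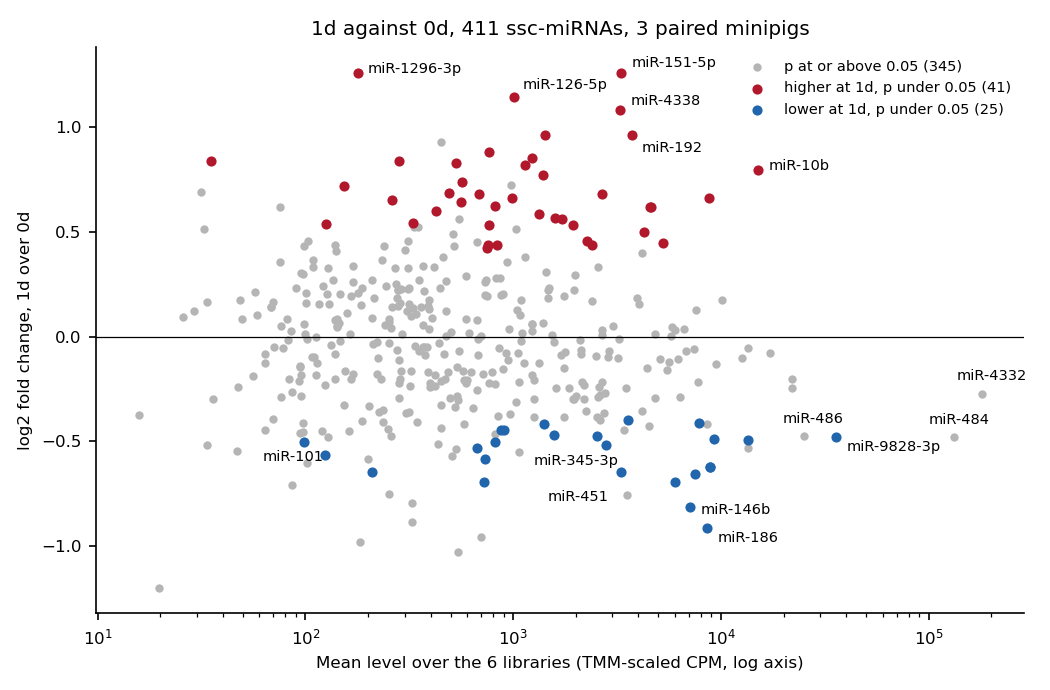
The log2 fold change at 1d over 0d (vertical axis) is plotted against the mean level over the 6 libraries (horizontal log axis, TMM-scaled CPM) for every ssc-miRNA tested, with red points for the 41 that rose and blue points for the 25 that fell at an unadjusted p under 0.05. The risers reach a log2 fold change of 1.26 and the fallers end at −0.91, and the most abundant ssc-miRNAs on the right lie below 0.

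The smallest p belonged to ssc-miR-126-5p, an arm of the endothelial and platelet miR-126 hairpin. Its level was 502.4, 890 and 490 CPM at 0d and 1273, 1987 and 942 CPM at 1d in minipigs 1, 2 and 3. Each 1d library stood above each 0d library. The log2 fold change was 1.14 (SE 0.15, adjusted p = 0.212 in edgeR's quasi-likelihood test, n = 3 pairs). The log2 changes of the single minipigs were 1.33, 1.15 and 0.94.

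ssc-miR-151-5p, cut from an intron of the focal adhesion kinase gene and abundant in platelets, was at 1591, 1652 and 2494 CPM at 0d. It reached 4756, 3037 and 6237 CPM at 1d, with no overlap between the times and the smallest gain in minipig 2. It rose by 1.26 on the log2 scale (SE 0.19, adjusted p = 0.212).

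The opposite arms of these hairpins did not pass the test. ssc-miR-126-3p was at 1150, 826 and 875 CPM at 0d and at 629, 608 and 814 CPM at 1d, lower in each minipig and without overlap, with a log2 fold change of −0.47 (SE 0.20, adjusted p = 0.343). ssc-miR-151-3p went from 519, 475 and 745 CPM to 618, 581 and 613 CPM, a log2 fold change of 0.08 (SE 0.19, adjusted p = 0.849), up in minipigs 1 and 2 and down in minipig 3. The difference between arms was not tested. Over all 78 hairpins with both arms in the table, 42 had arms with the same sign of change, and of the 19 with at least 1 called arm, 10 did. In 2 of them, miR-7142 and miR-146a, both arms were called.

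ssc-miR-192 and ssc-miR-215, homologous miRNAs of liver and intestinal epithelium that p53 is known to induce, rose together. ssc-miR-192 was at 1865, 2374 and 3300 CPM at 0d and at 4884, 3491 and 6370 CPM at 1d. Each 1d value exceeded each 0d value, although 3491 in minipig 2 lay just above 3300 in minipig 3. Its log2 fold change was 0.96 (SE 0.20, adjusted p = 0.267). ssc-miR-215 moved from 731, 1057 and 1085 CPM to 2083, 1431 and 2117 CPM, again without overlap (log2 fold change 0.96, SE 0.24, adjusted p = 0.267). The close similarity of their sequences means that reads may have been split between them by the counting.

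ssc-miR-194a, whose hairpin neighbours that of ssc-miR-192 in RefSeq's Sscrofa11.1 annotation, had a log2 fold change of 0.05 (SE 0.17, adjusted p = 0.91). ssc-miR-194b-3p had 0.36 (adjusted p = 0.407) and ssc-miR-194b-5p had 0.16 (adjusted p = 0.668). ssc-miR-122, the most abundant miRNA of hepatocytes, was at 329.4, 450 and 385 CPM at 0d and at 527, 399 and 338 CPM at 1d. It was higher only in minipig 1, with a log2 fold change of 0.09 (SE 0.24, adjusted p = 0.878). ssc-miR-885-5p, another liver-enriched miRNA, fell from 982, 758.3 and 1122 CPM to 674, 531 and 823 CPM (log2 fold change −0.50, SE 0.14, adjusted p = 0.267). The liver list of 7 thus held 1 member that rose and 1 that fell, beside 9.98% and 6.08% of the whole table, with a median of 0.09, which turned to −0.03 under the scaling over 12 libraries.

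Among the known p53 targets of the miR-34 family, ssc-miR-34c rose from 620, 1443 and 1093 CPM to 1665, 2116 and 1422 CPM. It was higher in each minipig, but the lowest 1d library, minipig 3, was below minipig 2 at 0d. The log2 fold change was 0.77 (SE 0.24, adjusted p = 0.279). It was 0.51 without minipig 1, still past the unadjusted threshold, and 0.85 without minipig 2, where it did not pass. ssc-miR-34a was at 190, 171 and 140 CPM at 0d and at 200, 193 and 180 CPM at 1d, with a log2 fold change of 0.21 (SE 0.17, adjusted p = 0.599).

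The other ssc-miRNAs of the 10 smallest p in the upward direction included several with little known function. ssc-miR-325 had 408, 611 and 601 CPM at 0d and 836, 1043 and 1087 CPM at 1d, a log2 fold change of 0.88 (SE 0.15, adjusted p = 0.212). ssc-miR-4338 had 1535, 2155 and 2623 CPM at 0d and 4368, 3518 and 5417 CPM at 1d, a log2 fold change of 1.08 (SE 0.20, adjusted p = 0.212). ssc-miR-1296-3p had 67.0, 89.2 and 161 CPM at 0d and 264, 240 and 249 CPM at 1d, a log2 fold change of 1.26 (SE 0.29, adjusted p = 0.267). In these 3, all 1d libraries stood above all 0d libraries.

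ssc-miR-9822-3p was also separated between the times (log2 fold change 0.85), whereas both arms of ssc-miR-7142 overlapped. ssc-miR-7142-5p had 6213, 5306 and 8770 CPM at 0d and 10823, 7696 and 13790 CPM at 1d, higher in each minipig (log2 fold change 0.66, SE 0.15, adjusted p = 0.267). Its 3p arm had a log2 fold change of 0.68. ssc-miR-338, an intronic miRNA of a neuronal kinase gene, had 0.84, and its levels differed more between minipigs than between times.

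**Figure D2:**
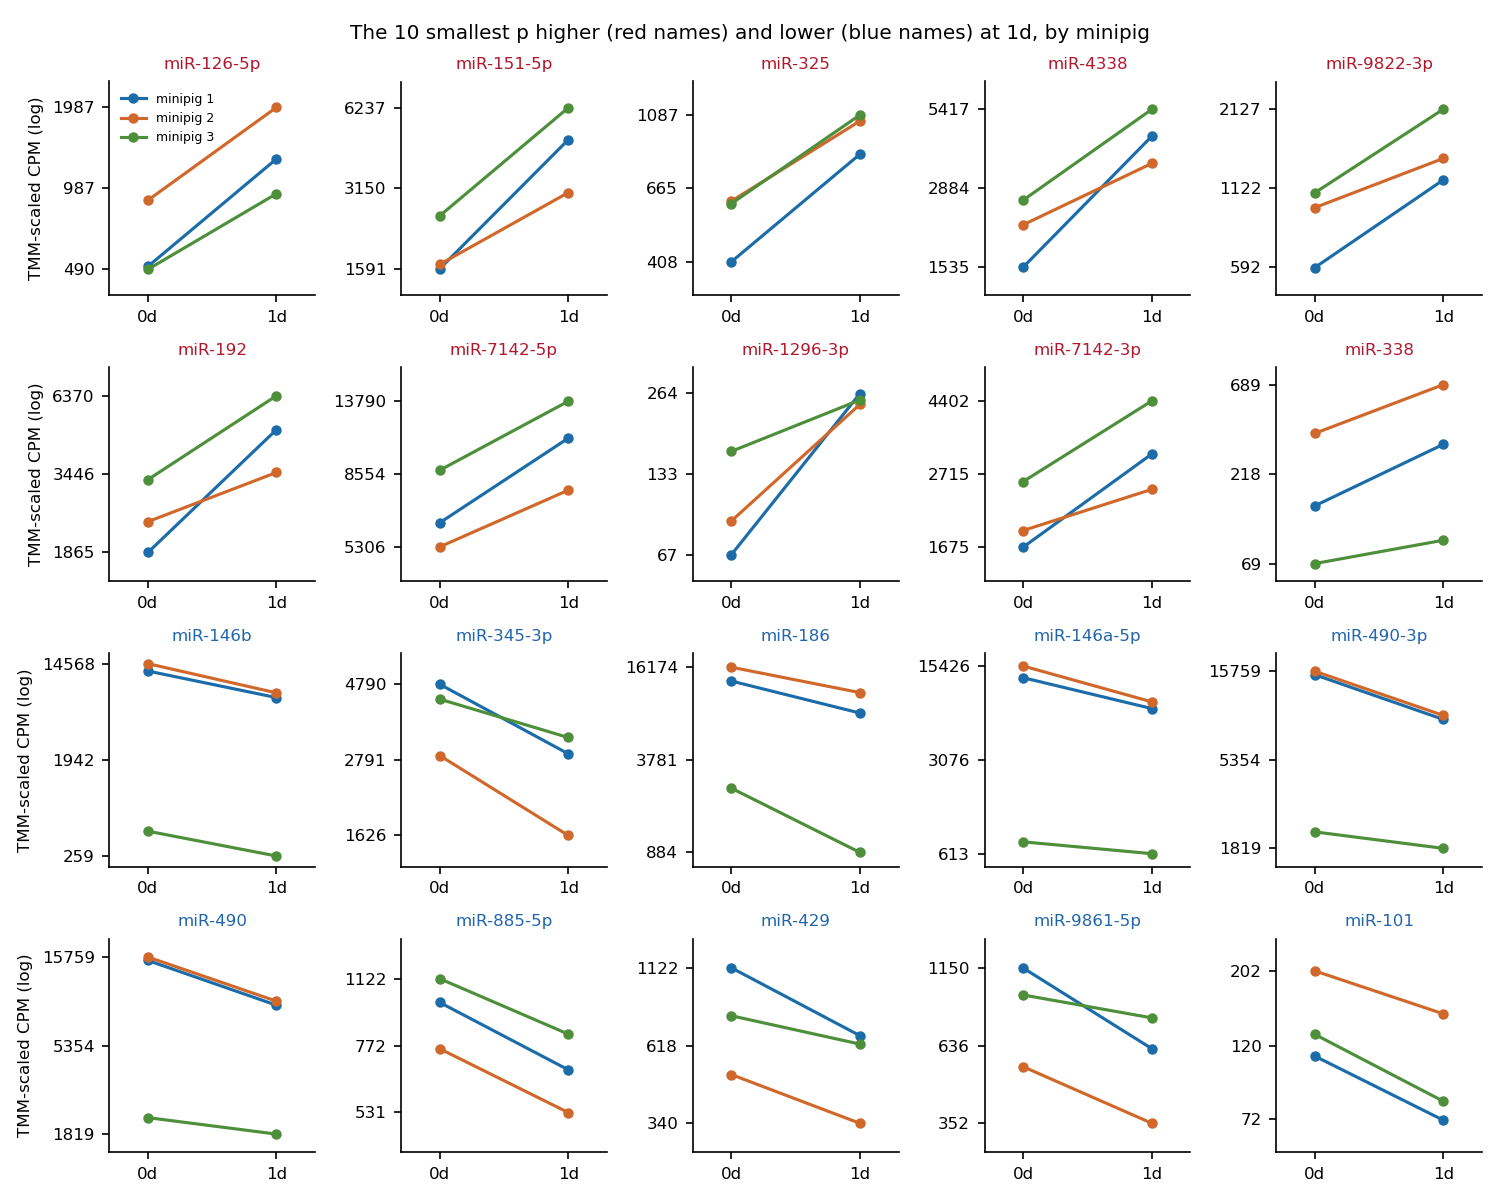
Each panel plots TMM-scaled CPM on a log axis at 0d and 1d for 1 ssc-miRNA, with a line for each of the 3 minipigs, for the 10 smallest p in each direction (red names higher, blue names lower at 1d). All lines slope the same way within a panel, as the choice of these ssc-miRNAs required, and in miR-146b, miR-186, miR-146a-5p and miR-490 minipig 3 lies far below the other two.

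Of the 9 listed arms of miR-143, miR-145, miR-199 and miR-214, which are enriched in smooth muscle and fibroblasts, 2 rose, none fell and 8 had a log2 fold change above 0, beside 9.98% that rose and 47.2% above 0 in the whole table. The list's median was 0.52, beside −0.03 over the whole table, and stayed between 0.34 and 0.68 in every alternative setting, all of which reuse these libraries. The 3p arms of miR-199a and miR-199b both had 0.52, at mean levels of 332 and 349 CPM. They may rest on shared reads, so the 9 arms are not independent. ssc-miR-199a-5p rose from 307, 481 and 364 CPM to 746, 660 and 632 CPM (log2 fold change 0.83, SE 0.21, adjusted p = 0.267), without overlap. ssc-miR-214, its neighbour in Sscrofa11.1, rose from 496.8, 685 and 739 CPM to 1021, 785 and 1166 CPM (0.62, SE 0.21, adjusted p = 0.279), also without overlap. ssc-miR-143-3p went from 368, 1472 and 540 CPM to 1134, 1563 and 804 CPM, higher in each minipig but widely spread (0.72, SE 0.32, adjusted p = 0.361).

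The miR-23/24/27 clusters, known in endothelium and vascular repair, held 8 rows, of which 4 rose (9.98% did in the whole table) and none fell, with a median of 0.43 and a range of medians from 0.31 to 0.60 over the alternatives. ssc-miR-23a rose from 620, 681 and 607 CPM to 859, 907 and 793 CPM, by nearly the same amount in each minipig (log2 fold change 0.42, SE 0.14, adjusted p = 0.279). ssc-miR-27a rose from 2730, 4214 and 3884 CPM to 4862, 6949 and 4794 CPM (0.62, SE 0.17, adjusted p = 0.267). The counts of ssc-miR-27b-3p differed from those of ssc-miR-27a by at most 1.06% in any of the 6 libraries, so that these 2 calls may rest on the same reads. ssc-miR-23b, close in sequence to ssc-miR-23a, rose from 625, 716 and 588 CPM to 911, 962 and 748 CPM (0.44, SE 0.15, adjusted p = 0.279). Neither ssc-miR-23a nor ssc-miR-23b was called in any fit that left out a minipig. ssc-miR-24-3p of the same clusters had a log2 fold change of 0.45 (adjusted p = 0.343).

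In the list of miR-10, miR-99, miR-100 and miR-125, of which the miR-10 genes lie within Hox gene clusters, 3 of 8 members rose and 1 fell, beside 9.98% and 6.08% of the whole table. ssc-miR-10b, one of the most abundant risers, went from 9300, 11721 and 11915 CPM to 22486, 19632 and 15317 CPM (log2 fold change 0.79, SE 0.22, adjusted p = 0.267). The times did not overlap, and minipig 3 gained least. ssc-miR-10a-5p (0.45, adjusted p = 0.279) and ssc-miR-99b (0.53, adjusted p = 0.267) also rose without overlap. Whichever minipig was left out, ssc-miR-99b was no longer called. ssc-miR-99b shares a cluster with let-7e and ssc-miR-125a in Sscrofa11.1, and these had log2 fold changes of −0.05 (adjusted p = 0.91) and −0.40 (adjusted p = 0.306). ssc-miR-125b, a regulator of apoptosis and blood cell formation, fell from 3936, 1761 and 3176 CPM to 2275, 1302 and 2763 CPM (−0.47, SE 0.17, adjusted p = 0.28). It had −0.27 without minipig 1 and −0.53 without minipig 2, and passed the test in neither of these fits.

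The paralogs ssc-miR-103 and ssc-miR-107, which lie in introns of pantothenate kinase genes, rose by 0.82 (SE 0.27, adjusted p = 0.279) and 0.59 (SE 0.20, adjusted p = 0.28) on the log2 scale. ssc-miR-103 went from 569, 989 and 913 CPM to 1668, 1581 and 1108 CPM, with its largest gain in minipig 1. It had no call without that minipig (0.52) or without minipig 2 (0.85). ssc-miR-210, the miRNA induced by hypoxia, rose from 698, 683 and 871 CPM to 1111, 871 and 1683 CPM (0.66, SE 0.18, adjusted p = 0.267). At 1d, minipig 2 was level with minipig 3 at 0d. ssc-miR-324, a miRNA with targets in hedgehog signalling, rose evenly, from 2032, 2052 and 1995 CPM to 2704, 2799 and 2714 CPM (0.43, SE 0.13, adjusted p = 0.279). It was nevertheless not called in any fit that left out a minipig.

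Among the fallers were all 3 rows of miR-146, the feedback inhibitor of NF-kappaB signalling that targets TRAF6 and IRAK1. ssc-miR-146b fell from 12482, 14568 and 435 CPM to 7151, 7895 and 259 CPM. The levels of minipig 3 lay at least 28.7-fold below those of the other two at 0d and 27.6-fold at 1d, so the groups overlapped, but the log2 changes within the animals were −0.80, −0.88 and −0.74. The fitted change was −0.81 (SE 0.14, adjusted p = 0.212). Without the minipig block, where the spread between animals enters the error, it did not pass the test.

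ssc-miR-146a-5p fell from 12616, 15426 and 752 CPM to 7426, 8333 and 613 CPM (log2 fold change −0.66, SE 0.18, adjusted p = 0.267). ssc-miR-146a-3p fell from 430, 258 and 111 CPM to 188.3, 172 and 100.3 CPM (−0.65, SE 0.25, adjusted p = 0.294), and by less without minipig 1, where the value was −0.34 and did not pass the test. Without minipig 2, ssc-miR-146a-3p had −0.73 and did not pass either. These 3 were the called members of the inflammatory list of 6, beside 6.08% of the whole table that fell. The list's median was −0.47, against −0.03 over the whole table, and ranged from −0.65 to −0.30 over the alternatives. The others were ssc-miR-21, at 396, 760 and 680 CPM and then 410, 1359 and 424.3 CPM (0.08, adjusted p = 0.919), and both arms of miR-155, with log2 fold changes of 0.17 and −0.30 at mean levels of 33.5 and 36.0 CPM.

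ssc-miR-186 had the most negative log2 fold change of the called rows, −0.91 (SE 0.22, adjusted p = 0.267). It went from 13018, 16174 and 2422 CPM to 7878, 10855 and 884 CPM, lower in each minipig and with minipig 3 lowest at both times. ssc-miR-345-3p went from 4790, 2878 and 4307 CPM to 2915, 1626 and 3274 CPM (−0.64, SE 0.16, adjusted p = 0.267). ssc-miR-490-3p fell by 0.62 on the log2 scale (SE 0.17, adjusted p = 0.267), and the row named ssc-miR-490 holds identical counts, so both are 1 measurement. ssc-miR-9861-5p fell from 1150, 541.1 and 936 CPM to 621, 352 and 786 CPM (−0.58, SE 0.19, adjusted p = 0.279), with overlap between the times.

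ssc-miR-429, an epithelial miRNA of the miR-200 family, fell from 1122, 494.5 and 777 CPM to 667, 340 and 625 CPM (log2 fold change −0.53, SE 0.17, adjusted p = 0.279), whereas the epithelial ssc-miR-205 had −0.45 (SE 0.30, adjusted p = 0.543), with a loss in minipigs 1 and 2 and a gain in minipig 3. ssc-miR-101, which targets the chromatin enzyme EZH2, fell from 112, 202 and 130 CPM to 71.6, 150 and 81.6 CPM (−0.56, SE 0.18, adjusted p = 0.279). ssc-miR-671-5p fell from 13007, 9167 and 10265 CPM to 8127, 6385 and 8532 CPM (−0.49, SE 0.16, adjusted p = 0.279) with all 1d libraries below all 0d libraries, as was ssc-miR-139-5p (−0.42, SE 0.14, adjusted p = 0.279). Such complete separation was found for 7 ssc-miRNAs of the whole table downward (1.7%) and 35 upward (8.52%), and 29 of the 66 called ssc-miRNAs showed it.

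Let-7, the large family tied to differentiation, held 9 rows, of which 8 had a log2 fold change below 0, beside 52.8% of the whole table, and 1 fell, beside 6.08%. ssc-let-7d-5p fell from 2160, 1063 and 2267 CPM to 1303, 801 and 1872 CPM (log2 fold change −0.47, SE 0.16, adjusted p = 0.279). It had no call without minipig 1 (−0.30) or without minipig 2 (−0.53). The family's median was −0.29 and ranged from −0.53 to −0.04 over the alternatives. The miR-29 family, which targets collagen and matrix genes, had 3 rows with no call, beside 16.1% called in the whole table. Its median was −0.60, and was −0.05 without minipig 2 and −0.87 without minipig 3. The log2 fold changes were 0.24 for ssc-miR-29a, −0.71 for ssc-miR-29b and −0.60 for ssc-miR-29c. Of the 20 miRNAs of the imprinted DLK1-DIO3 region, 15 lay below 0 (52.8% of the whole table did), ssc-miR-370 rose (0.50, adjusted p = 0.279) and ssc-miR-494 fell (−0.45, adjusted p = 0.294). ssc-miR-494 was not called whichever minipig was left out, and had −0.25 without minipig 1. The region's median of −0.13 became 0.03 with library size scaling alone.

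**Figure D3:**
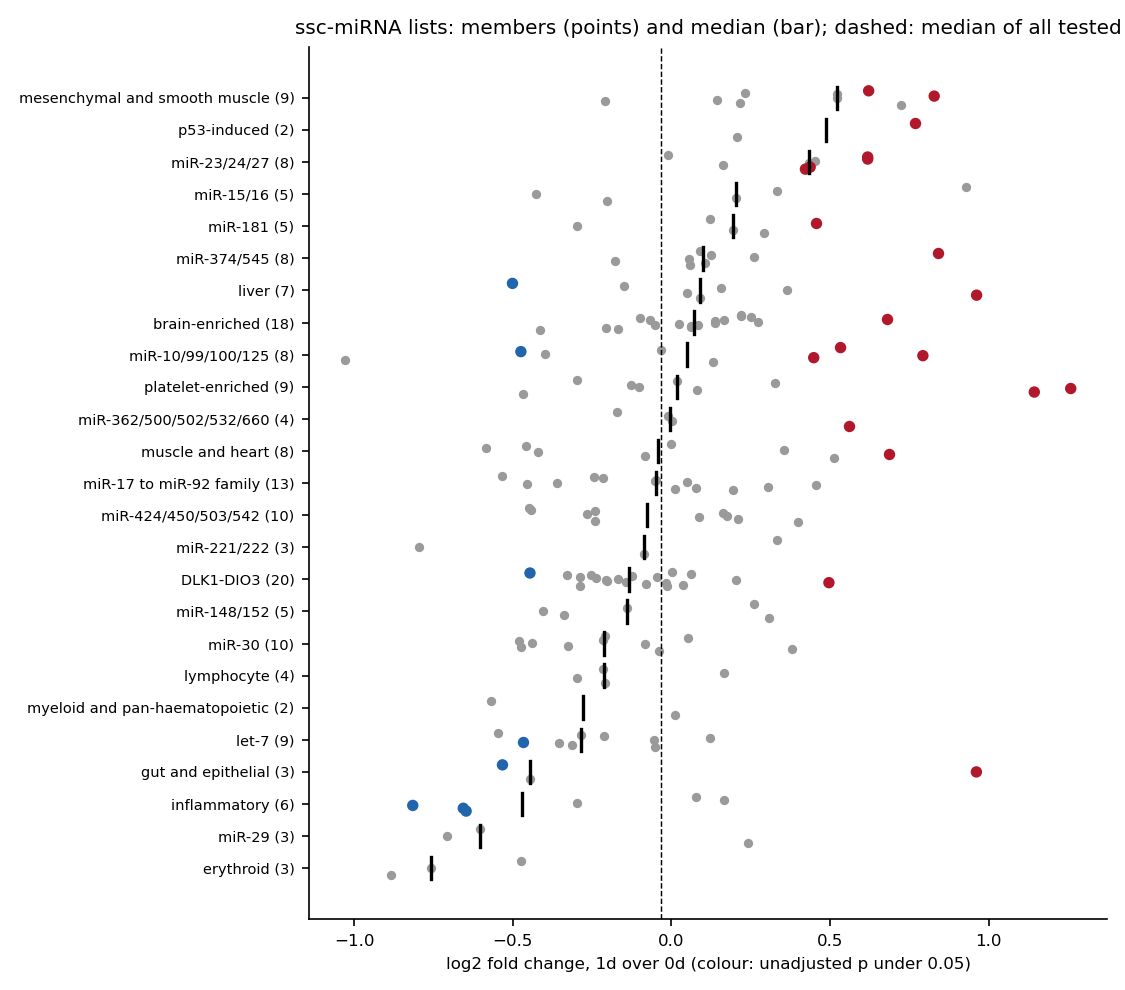
Each row is a list of ssc-miRNAs with its number of members, the horizontal axis is the log2 fold change at 1d over 0d, points are members (red rose, blue fell, grey did not pass the test), black bars are list medians and the dashed line is the median of all tested (−0.03). The mesenchymal and smooth muscle list lies highest of the 25 with a median of 0.52, and the erythroid list lies lowest with −0.76 and no member passing the test.

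The differences of red cell miRNAs had opposite signs in different minipigs, and none passed the test (3 rows, beside 16.1% called in the whole table). ssc-miR-451, which makes up much of the miRNA in red cells and is released by hemolysis, was at 1016, 3208 and 8264 CPM at 0d and at 855, 7017 and 727 CPM at 1d. It was thus nearly level in minipig 1, higher in minipig 2 and much lower in minipig 3, with log2 changes of −0.25, 1.13 and −3.50. The fitted log2 fold change was −0.76 (SE 1.00, adjusted p = 0.711). ssc-miR-486 went from 9998, 28619 and 43648 CPM to 10503, 49401 and 7925 CPM, and ssc-miR-144, processed from the same transcript as ssc-miR-451, from 94.9, 341 and 764 CPM to 75.3, 612 and 74.6 CPM. Together these 3 took 0.943%, 3.50% and 4.80% of the counts at 0d and 1.16%, 7.06% and 0.827% at 1d.

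The log2 ratio of ssc-miR-451 to ssc-miR-23a, a common index of hemolysis in plasma, was 0.71, 2.24 and 3.77 at 0d and −0.01, 2.95 and −0.12 at 1d (mean change −1.30, exact permutation p = 0.5 with 3 pairs). Its denominator ssc-miR-23a was itself higher at 1d, by 0.47, 0.41 and 0.38, so part of that change belongs to ssc-miR-23a. Minipig 3 had the lowest change of the 3 minipigs in 3 of 3 erythroid rows, 2 of 2 myeloid and pan-haematopoietic rows, 1 of 4 lymphocyte rows and 3 of 9 platelet rows, beside 34.8% of the whole table. The same held for 4 of 5 rows of miR-15 and miR-16 and for 7 of 8 rows of the miR-23/24/27 clusters, whose median log2 fold change was 0.43. ssc-miR-16 had log2 changes of 0.12, 1.09 and −2.73, ssc-miR-15a had 0.81, 0.62 and −1.96, and ssc-miR-142-5p had −0.19, 0.15 and −1.65. ssc-miR-191, abundant in platelets, had −0.29, 0.49 and −0.51. Other platelet and lymphocyte rows had their highest change in minipig 3, with −0.14, −1.06 and 0.31 for ssc-miR-425-5p, −0.57, −0.03 and 0.20 for ssc-miR-28-3p and −0.45, −0.28 and 0.09 for ssc-miR-150. The part of red cell release in the other changes was not tested. Without minipig 3 the median of the erythroid list was 0.45 in place of −0.76.

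**Figure D4:**
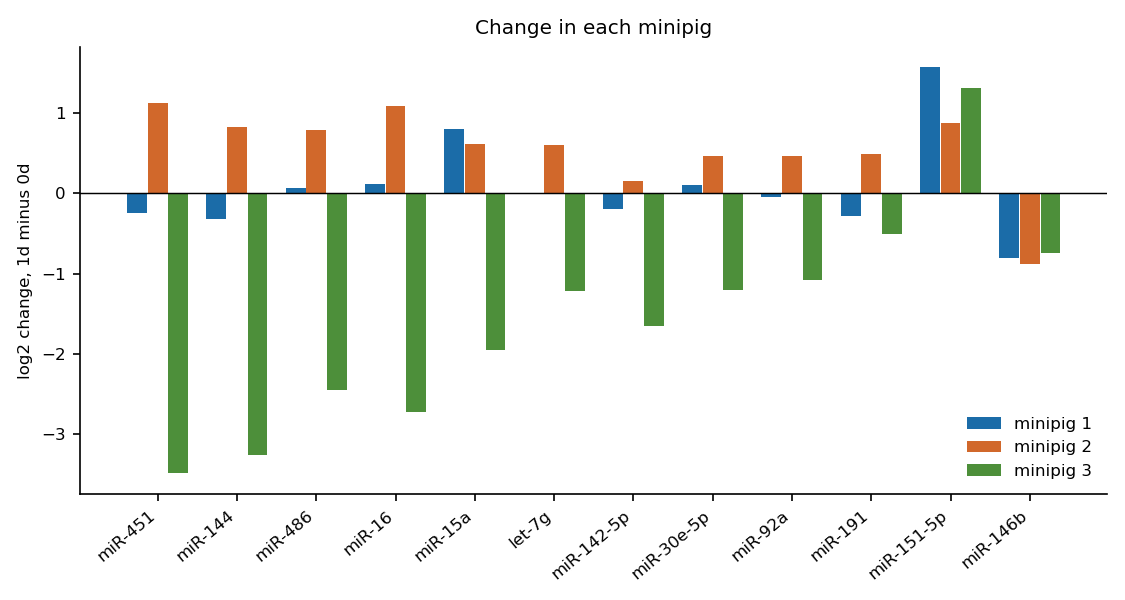
Bars give the log2 change in TMM-scaled CPM from 0d to 1d in each of the 3 minipigs for 12 ssc-miRNAs. The first 10, red cell miRNAs and others chosen after their values were seen, are lower in minipig 3 (−3.50 for miR-451) and, in all 10, are higher in minipig 2, whereas miR-151-5p is higher and miR-146b lower in all 3.

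No lymphocyte miRNA passed the test (4 rows, beside 16.1% called in the whole table). ssc-miR-150, the defining miRNA of mature lymphocytes, was at 798, 516 and 607 CPM at 0d and at 584, 424.1 and 648 CPM at 1d (log2 fold change −0.21, SE 0.18, adjusted p = 0.611), lower in minipigs 1 and 2. ssc-miR-342 had −0.22 (SE 0.18, adjusted p = 0.609). In the platelet list, 2 of 9 members rose (9.98% of the whole table did), both named above, and the median was 0.02, which turned to −0.10 with the scaling over 12 libraries. Of 8 muscle and heart miRNAs, 1 rose (9.98% of the whole table did), ssc-miR-133a-5p (0.68, SE 0.25, adjusted p = 0.28), while ssc-miR-133a-3p had −0.08 (SE 0.16, adjusted p = 0.821). The list's median was −0.04, and 0.12 with library size alone. The miR-17 to miR-92 family, which drives proliferation, had no call among 13 members, beside 16.1% called in the whole table. Its median was −0.05, and 0.12 with library size alone. Likewise without a call were miR-30 (10 rows, median −0.21), miR-148 and miR-152 (5, −0.14), miR-221 and miR-222 (3, −0.09), the miR-424 cluster (10, −0.08), miR-15 and miR-16 (5, 0.20) and the 2 arms of miR-142 (−0.57 and 0.01). A single member rose in the brain-enriched list (18, median 0.07), the miR-181 family (5, 0.20), the miR-374 and miR-545 group (8, 0.10) and the miR-362 cluster (4, 0.00), beside 9.98% of the whole table. At the shares of the whole table, lists this small may hold 0 or 1 call, so they are not read as unchanged. Equal values in the brain-enriched list (miR-9-1 and miR-9-2, miR-129a-5p and miR-129b, miR-218 and miR-218-5p) mean that its 18 rows are fewer separate measurements. Several medians of these lists changed sign. Without minipig 2, miR-15 and miR-16 had −0.17, miR-148 and miR-152 0.15 and miR-374 and miR-545 −0.12. With library size alone, miR-221 and miR-222 had 0.08 and the miR-424 cluster 0.08, while the brain-enriched list had −0.05 with the 12 libraries in the fit. The miR-30 median was −0.02 without minipig 3 and −0.04 with library size alone, and the miR-181 median was 0.09 without minipig 2.

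The size of the shift was compared with other intervals after thinning 12 libraries to 24341 counts. The root mean square log2 difference between 0d and 1d was 0.74, 0.68 and 0.70 in the 3 minipigs. Between C7 and C1, without irradiation, it was 1.24, 0.81 and 0.65, where the first value includes the shallowest library of the 12. Between different minipigs at the same time it ran from 0.75 to 1.04. The value from 6 h to 1 day was thus below that between the unirradiated draws in minipigs 1 and 2 and above it in minipig 3, although the 2 intervals differ in length and all values include counting error at this depth. Across all ssc-miRNAs tested, the changes of minipigs 1 and 2 had a Pearson r of 0.29, those of 1 and 3 a value of 0.29, and those of 2 and 3 a value of −0.14. These points share libraries and scaling and are not independent replicates.

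For the same test on C1 against C7, edgeR's quasi-likelihood test called 0 ssc-miRNAs at an unadjusted p under 0.05 and 0 after adjustment, with a biological coefficient of variation of 0.429 against 0.235 for 1d and 0d. DESeq2's Wald test called 6 at the unadjusted threshold and edgeR's likelihood ratio test 4, and without minipig 2 the quasi-likelihood test called 49 (11.9%). Whether the shift after TBI differed from that between the pre-TBI draws was tested directly as (1d − 0d) − (C1 − C7) in 1 fit of 12 libraries. There 6 ssc-miRNAs were larger (1.46%) and 2 smaller (0.487%) at an unadjusted p under 0.05, and none after adjustment, with a smallest adjusted p of 0.897. Without the C7 library of minipig 1, 7 were larger and 8 smaller, again none after adjustment.

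The difference of the shifts was 1.19 on the log2 scale for ssc-miR-151-5p (SE 0.41, adjusted p = 0.897), 1.02 for ssc-miR-103 (SE 0.39, adjusted p = 0.897), 1.15 for ssc-miR-338 (adjusted p = 0.897) and −1.08 for ssc-miR-429 (SE 0.41, adjusted p = 0.897). For ssc-miR-126-5p it was 0.82 (SE 0.52, adjusted p = 0.897). On the scale of the 12 libraries ssc-miR-126-5p was at 340, 724 and 836 CPM at C7 and at 948, 615 and 713 CPM at C1, higher at C1 only in minipig 1, whose C7 library was the shallowest of the 12 (24341 counts).

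Each time was also set against the 6 pre-TBI libraries in that fit, which both comparisons share. At 0d, 45 ssc-miRNAs were higher (10.9%) and 30 lower (7.3%) at an unadjusted p under 0.05, and at 1d 26 (6.33%) lay above and 70 (17%) below the baseline. No adjusted p was under 0.05 at either time. Without the C7 library of minipig 1, which holds 24341 counts, 41 were higher and 18 lower at 0d, and 35 higher and 69 lower at 1d. ssc-miR-151-5p had log2 fold changes of −0.10 at 0d (adjusted p = 0.819) and 1.03 at 1d (adjusted p = 0.0972). ssc-miR-192 had −0.21 (adjusted p = 0.558) and 0.63 (adjusted p = 0.148). ssc-miR-34c had 0.54 (adjusted p = 0.329) and 1.14 (adjusted p = 0.0984). ssc-miR-325 had 0.49 (adjusted p = 0.283) and 1.24 (adjusted p = 0.0693).

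ssc-miR-146b, in contrast, was at −1.18 at 0d (adjusted p = 0.252) and at −2.14 at 1d (adjusted p = 0.0972), and ssc-miR-186 at −0.59 (adjusted p = 0.38) and −1.62 (adjusted p = 0.0972). The shallow C7 library of minipig 1 held the highest level of both. Without it, in a fit of 11 libraries, ssc-miR-146b had −0.72 (adjusted p = 0.382) and −1.68 (adjusted p = 0.145), and ssc-miR-186 had −0.15 (adjusted p = 0.782) and −1.15 (adjusted p = 0.14). ssc-miR-345-3p had 0.72 at 0d (adjusted p = 0.252), no longer past the unadjusted threshold without that library (0.61, adjusted p = 0.308), and 0.00 at 1d (adjusted p = 0.997), ssc-miR-671-5p was at 1.02 (adjusted p = 0.251) and then 0.44 (adjusted p = 0.378), and ssc-miR-139-5p at 0.65 (adjusted p = 0.251) and then 0.12 (adjusted p = 0.759). For these, chosen among the fallers, the 1d level was nearer to baseline than the 0d level. The same 0d libraries enter both the fall and the 0d value, so a return to baseline was not tested. ssc-miR-122 had log2 fold changes of −1.08 at 0d (adjusted p = 0.251) and −1.09 at 1d (adjusted p = 0.0972).

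**Figure D5:**
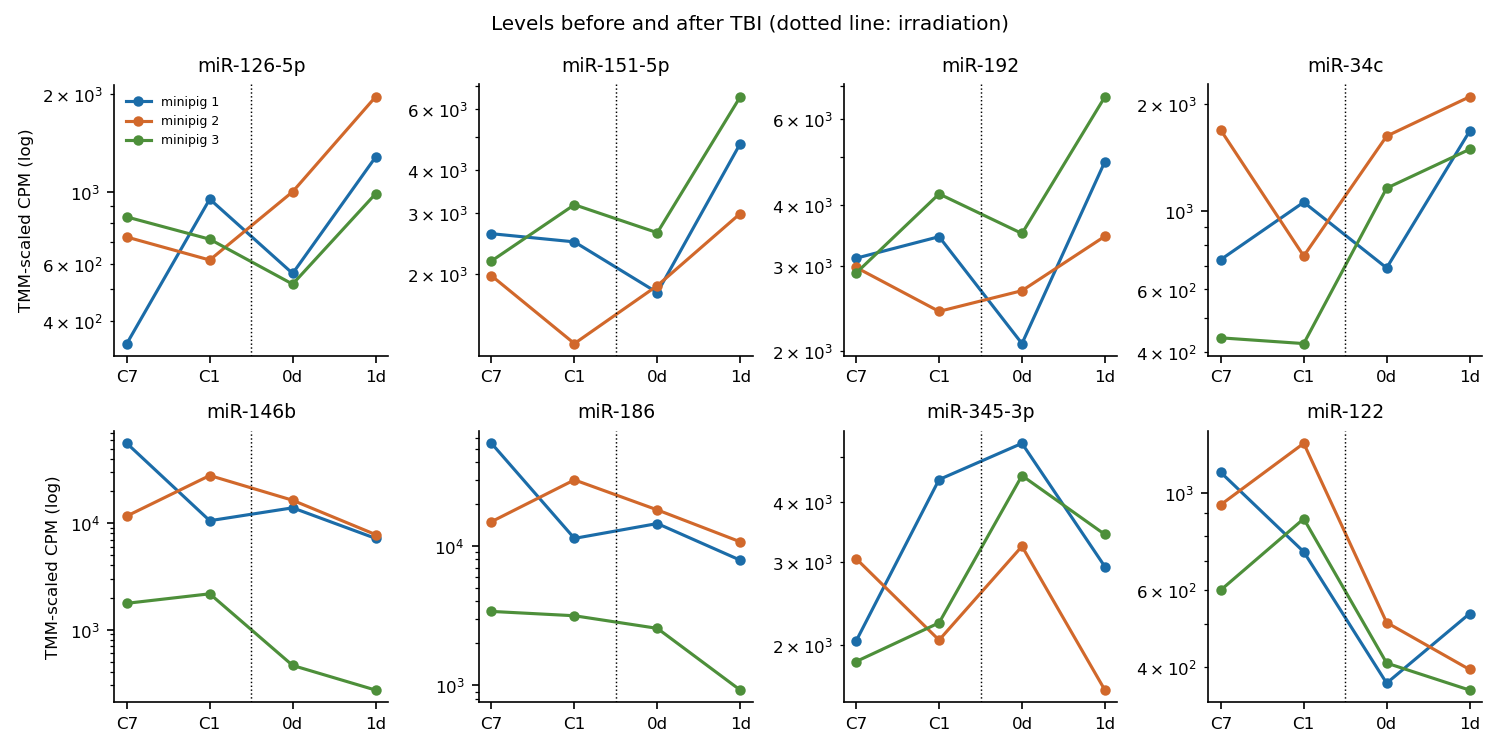
TMM-scaled CPM on a log axis is plotted for 8 ssc-miRNAs in the 3 minipigs at C7, C1, 0d and 1d, on the common scale of 12 libraries, with a dotted line at irradiation. miR-151-5p lies between 1261 and 3179 CPM until 0d and between 2998 and 6520 CPM at 1d, miR-146b and miR-186 are lowest at 1d and miR-345-3p highest at 0d in each minipig, and miR-122 is lower at both times after TBI.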

How the data were processed

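Small RNA of plasma was sequenced from 3 GMPs at 10 time points, and the libraries of 0d and 1d were compared here. The members and the 25 lists were chosen with earlier results of these data known. Libraries came from the TruSeq small RNA kit. The authors trimmed the NextSeq reads (Cutadapt), mapped them to the ssc5 pig genome (Bowtie) and to miRBase, and used miRDeep2 to quantify ssc-miRNAs. The deposited values are raw counts per ssc-miRNA and library, without normalization. The authors' methods filter out ssc-miRNAs with fewer than 5 counts in 10% of samples. Every deposited row had 5 or more counts in at least 9 of the 30 libraries. PCR copies were not separated, so counts carry more than counting error.

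Counts were tested with edgeR's quasi-likelihood test (edgeR 4.0.16, R 4.3.3), with TMM scaling over the 6 libraries, the minipig as a block and a low-count filter (CPM over 0.5 in 3 or more libraries) that every row passed. Standard errors were obtained as the absolute log2 fold change over the root of the F statistic. Adjusted p-values are Benjamini-Hochberg over all ssc-miRNAs tested. The study's threshold, an unadjusted p under 0.05, was used for calls. Levels per library are CPM on the TMM-scaled library size, and log2 changes within minipigs use a prior count of 2. For library totals, shares and ratios, time labels were swapped within minipigs in an exact permutation test (two-sided).

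The pairing came from the animal label. Deviations from the group mean correlated across ssc-miRNAs at 0.73, 0.55 and 0.69 within minipigs and between −0.61 and −0.11 across them. No 2 libraries agreed within sampling noise. The rule for named ssc-miRNAs took the 10 ssc-miRNAs with the smallest p in each direction that moved alike in 3 minipigs, those with an adjusted p under 0.05, the 5 most abundant and up to 4 of the most abundant of each list. Of the last, those not described are given through their list's counts and median. ssc-miR-99b, ssc-miR-103, ssc-miR-107, ssc-miR-139-5p, ssc-miR-210, ssc-miR-324, ssc-miR-494, ssc-miR-671-5p, ssc-miR-24-3p, ssc-miR-183, ssc-miR-452, ssc-miR-9850-5p, the miR-374 rows with a gap between minipigs, the opposite arms of called hairpins and the neighbours of called hairpins were added after their values were seen. Neighbours within 10 kb were read from RefSeq's Sscrofa11.1 list, where 361 rows matched a gene. That assembly is not the one the authors mapped to, so no coordinates are given. Alternatives were a fit without the block, 12 or 24 libraries in the fit, other scalings, filters and tools (DESeq2 1.42.0), thinning and leaving out each minipig. Figures were drawn with matplotlib 3.10.9.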

Additional observations from a re-analysis of the deposited data

How the results depend on the processing

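The direction of the 66 called ssc-miRNAs was kept in all 15 alternatives for each row that had a value (1 row was not tested with at least 10 counts in every library), but the number of calls was not. Since all 66 moved alike in 3 of 3 minipigs and the alternatives reuse these libraries, the kept direction was largely set by the selection. Without the minipig pairing (no replicate block), 17 rose and 1 fell. With 12 libraries in the fit 13 rose and 5 fell, and with the 24 libraries of at least 1000 counts 8 rose and 1 fell. With library size alone 55 rose and 7 fell (88.7% upward, against 62.1% with TMM), and the median of all ssc-miRNAs moved from −0.03 to 0.13. With DESeq2's size factors 32 rose and 30 fell (51.6% upward). TMM factors over the 12 libraries, an alternative added after the data were seen, gave 25 rising and 37 falling (40.3% upward) and a median of −0.15. After thinning to 211132 counts, 40 rose and 13 fell. Adjusted calls numbered 13 with DESeq2's Wald test and 10 with the likelihood ratio test. Leaving out each minipig in turn gave 13 to 47 rising, 3 to 50 falling and 0 to 43 adjusted calls, where 13 and 3 were without minipig 1 and 50 and 43 without minipig 3, fits with 2 pairs. Called at an unadjusted p under 0.05 in all 15 were 7 ssc-miRNAs: ssc-miR-126-5p, ssc-miR-151-5p, ssc-miR-192, ssc-miR-215, ssc-miR-1296-3p, ssc-miR-4338 and ssc-miR-9822-3p. For C1 against C7, calls were 4 without the block, 6 with DESeq2, 4 with the likelihood ratio test and 2 to 49 without a minipig. For the difference of the shifts they were 8, and 5 without the block, 23 with library size alone, 18 with DESeq2 and 8 to 28 without a minipig. Without C7 replicate 1, an alternative added after the data were seen, the difference of the shifts gave 15 calls, and 18 in place of 30 ssc-miRNAs were lower at 0d than before TBI. The cause of these differences was not tested. With 3 pairs, 1 plasma library per animal and time and 211132 to 524084 counts, differences below a log2 fold change of 0.40 were not called.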

Other observations

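The level of a group of ssc-miRNAs separated minipig 3 from the other two by more than their own change with time. In 8 ssc-miRNAs of the whole table, minipig 3 was at least 5-fold below both other minipigs at 0d and at 1d. Of these, 5 were among the 25 that fell and 0 among the 41 that rose, beside 6.08% that fell and 9.98% that rose in the whole table. ssc-miR-183, a miRNA of sensory and epithelial cells, was at 12722, 14200 and 465 CPM at 0d and at 8556, 10644 and 394 CPM at 1d in minipigs 1, 2 and 3 (log2 fold change −0.41, SE 0.15, adjusted p = 0.28 in edgeR's quasi-likelihood test). The other members of its cluster in Sscrofa11.1 had log2 fold changes of 0.44 for ssc-miR-96-5p (adjusted p = 0.567) and 0.29 for ssc-miR-182 (adjusted p = 0.649). ssc-miR-9850-5p was 12.4-fold below the lower of the other two in minipig 3 at 0d and 11.2-fold at 1d. ssc-miR-374a-5p and ssc-miR-374b-5p showed the same gap, 6.68-fold and 5.64-fold at 0d, with log2 fold changes over time of 0.11 and 0.06. This pattern was noticed in the data and was not tested.

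Of 37 groups of neighbouring hairpins with at least 2 different ssc-miRNAs in the table, 12 held a called ssc-miRNA, and in 5 of these 12 all rows had the same sign, as in 16 of all 37. ssc-miR-362, of an X-linked cluster in mammals, rose from 1133, 1228 and 1836 CPM to 1966, 1669 and 2514 CPM (log2 fold change 0.56, SE 0.15, adjusted p = 0.267), while ssc-miR-500 beside it had 0.00 (adjusted p = 0.995) and both arms of ssc-miR-532 had −0.01 and −0.17. ssc-miR-452 rose from 285, 436 and 563 CPM to 723, 556 and 846 CPM (0.74, SE 0.24, adjusted p = 0.279), and its neighbour ssc-miR-224 had 0.56 (adjusted p = 0.343), with values higher at 1d in minipigs 1 and 2. ssc-miR-181d-3p rose (0.46, SE 0.15, adjusted p = 0.279), while ssc-miR-181d-5p of the same hairpin had 0.12 (adjusted p = 0.711) and ssc-miR-181c beside it −0.30 (adjusted p = 0.489).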
